A study of Mus musculus with 24 samples.

Results

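The genes described here are 9 components and receptors of the complement system, C1qa, C1qb, C1qc, C3, C4b, Cfb, Cfp, C3ar1 and C5ar1, taken by name from the 22609 gene symbols counted in each library. Their RNA was measured by sequencing of polyadenylated RNA in hind paw punch biopsies, in dorsal root ganglia (DRG) of levels L3 to L5, which hold the cell bodies of sensory neurons that reach the paw, and in the lumbar spinal cord. All mice were male, of the strain given as C57, and 8 to 12 weeks old. Control mice had 1 intraplantar injection of 10 µg IgG, and tissue was taken 1 day later. Agonist mice had 10 µg per injection of an agonist antibody to LTβR, the lymphotoxin beta receptor. This member of the tumour necrosis factor receptor family activates the non-canonical branch of NF-κB signalling. The day-1 group was taken 1 day after its first agonist injection. The day-6 group had 2 agonist injections, and the labels describe their spacing and the count of days in more than 1 way, so day 6 names the group rather than an exact interval. There were 3 libraries in each of 8 groups, which were control, day 1 and day 6 for both paw and DRG, and day 1 and day 6 for spinal cord, with no IgG spinal cord analysed here. Both time and the number of injections thus set day 6 apart, and there was no IgG group on day 6. The labels number the samples without saying that each is a separate mouse, so the spread behind each p-value is that between samples, which may be technical.

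Complement is a cascade of plasma and tissue proteins that tags surfaces, recruits leukocytes and lyses targets. C1q, built from the chains encoded by C1qa, C1qb and C1qc, starts the classical pathway, and in tissues it is made chiefly by macrophages, microglia and other myeloid cells. C4b encodes the complement component C4, which C1-associated proteases cleave. C3 is the component on which all activation routes converge. Cfb encodes factor B, the protease precursor of the alternative pathway, and Cfp encodes properdin, which stabilises the convertase of that pathway and is made by myeloid cells. C3ar1 and C5ar1 encode the receptors for the small fragments C3a and C5a, which act on myeloid cells. Complement in nerve and spinal cord has been studied in pain and in synapse removal.

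The promoter sequences of members that rose in paw skin between day 1 and day 6 are shown because the injected antibody acts through NF-κB. They were searched with a loose form of its kappa-B binding site, GGG and CC separated by any 5 bases. RefSeq promoter windows of build GRCm38.p6, from 250 bases before to 50 bases after each start, were matched for 6 of the 9 members, C1qb, C1qc, C3, Cfp, C3ar1 and C5ar1. The 250 bases before the start are given 5′ to 3′, with each match to that kappa-B pattern on either strand in capitals.
C1qb, chr4:136886201-136886450, minus strand: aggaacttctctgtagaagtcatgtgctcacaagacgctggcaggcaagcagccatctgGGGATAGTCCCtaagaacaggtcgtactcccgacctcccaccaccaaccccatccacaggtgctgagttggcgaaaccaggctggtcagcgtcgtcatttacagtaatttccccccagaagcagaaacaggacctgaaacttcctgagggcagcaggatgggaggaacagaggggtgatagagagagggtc
C1qc, chr4:136892915-136893164, minus strand: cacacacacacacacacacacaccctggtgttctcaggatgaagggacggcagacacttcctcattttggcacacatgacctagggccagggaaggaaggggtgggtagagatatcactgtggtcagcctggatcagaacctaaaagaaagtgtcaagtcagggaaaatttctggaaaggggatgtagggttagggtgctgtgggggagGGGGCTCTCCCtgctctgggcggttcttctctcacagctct
C3, chr17:57228137-57228386, minus strand: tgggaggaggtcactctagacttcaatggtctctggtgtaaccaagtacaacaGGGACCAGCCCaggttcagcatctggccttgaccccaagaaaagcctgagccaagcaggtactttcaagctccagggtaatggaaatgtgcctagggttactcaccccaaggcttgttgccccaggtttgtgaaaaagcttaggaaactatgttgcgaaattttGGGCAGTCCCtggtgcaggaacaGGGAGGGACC
Cfp, chrX:20931556-20931805, minus strand: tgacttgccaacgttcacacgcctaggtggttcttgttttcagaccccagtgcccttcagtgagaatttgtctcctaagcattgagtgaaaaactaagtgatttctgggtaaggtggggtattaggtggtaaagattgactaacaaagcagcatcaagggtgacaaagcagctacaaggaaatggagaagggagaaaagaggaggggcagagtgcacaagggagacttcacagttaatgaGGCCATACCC
The window of C3 held 5 matches to the pattern, of which the pair starting 197 and 196 bases before the start overlapped and the pair at 33 bases was 1 stretch that matches on both strands. The C1qc window held 3 matches, all within GGGGCTCTCCC, and the C1qb window 2, both within GGGATAGTCCC. Cfp and C3ar1 held 1 match each, and C5ar1 held 0. The pattern was in 50.8% of 32851 promoter windows of 300 bases, so its presence was common. A C/EBP pattern, TTGCNNAA, was found once in C3, as TTGCGAAA starting 45 bases before the start, and was in 10.8% of windows. An ETS pattern, GAGGAAG, was found once in C1qc, on the minus strand as CTTCCTC, and was in 13.6% of windows. These matches are letters in a sequence, and binding was not measured. In the RefSeq gene order, C1qb, C1qc and C1qa were direct neighbours among protein-coding genes, Cfb lay next to C2, C5ar1 next to C5ar2, and C3 next to Tnfsf14, which encodes LIGHT, another ligand of LTβR.

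Gene counts per library totalled 24.2 to 41.0 in paw, 21.6 to 34.2 in DRG and 15.7 to 26.3 in spinal cord, in units of 1000000 reads. The tissue labels were matched by their markers. Summed keratinocyte genes were at 45795 to 86585 CPM (counts per 1000000) in paw against at most 137 CPM elsewhere. Sensory neuron genes were at 3207 to 4014 CPM in DRG against at most 135 CPM elsewhere. Oligodendrocyte genes were at 15801 to 21031 CPM in spinal cord but also reached 8526 CPM in DRG, a smaller separation. Summed skeletal muscle genes varied widely within paw groups. They were at 99.1 to 11917 CPM in controls, 6807 to 19006 CPM on day 1 and 2476 to 10239 CPM on day 6. Hepatocyte genes, the markers of the main source of plasma complement, summed to at most 3.10 CPM in any library. Nfkb2 and Relb, which the non-canonical pathway induces, were higher in paw on day 6, where 0.667% of all genes were called higher. Their log2 fold changes were 1.11 ± 0.15 and 0.77 ± 0.12 (SE, edgeR adjusted p = 0.0209 and 0.0314). Both were also higher in DRG on day 1, where 0.162% of genes were (1.53 ± 0.17 and 0.88 ± 0.12, edgeR adjusted p = 0.0139 and 0.0228). In paw on day 1 only 1 of all genes was called, and in DRG on day 6 0, so they were not both called there. Their paw calls were lost in fits, given below, that called 0 of all genes.

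In control tissue the complement genes were mostly more abundant in paw skin than in DRG, and factor B differed most. Cfb was at 60.1, 63.0 and 40.9 CPM in the 3 control paw libraries and at 2.44, 2.95 and 3.44 CPM in the 3 control DRG libraries. That difference was 18.9-fold (log2 4.23 ± 0.30, edgeR adjusted p = 3.15e-09). Here and below, CPM are scaled by library size and TMM factor, a mean CPM is given with its SD and n = 3, errors of log2 fold changes are SE, and adjusted p are Benjamini-Hochberg values of the edgeR quasi-likelihood test over all genes tested, with a threshold of 0.05. C3ar1 was 3.14-fold higher in paw, C3 2.08-fold, C1qc 2.07-fold, C5ar1 1.94-fold, C1qb 1.62-fold, C1qa 1.47-fold and Cfp 1.35-fold, and each passed the test. The Cfp groups overlapped, and its call was lost in at least 1 fit without a library (highest edgeR adjusted p = 0.0619). TMM scaling assumes that most genes do not differ, which is a weaker assumption between tissues. C4b alone was lower in paw, with 83.1, 93.0 and 53.6 CPM against 130.1, 134 and 87.4 CPM in DRG. Its log2 fold change was -0.58 ± 0.25 (edgeR adjusted p = 0.0455), the groups overlapped, and the call was lost under other normalizations. All 9 members were thus called, where 81.5% of all 16461 genes tested in both tissues were, so being called here did not set the members apart.

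Per kilobase of exon, C1q chains had the highest means in control tissue, and C3 had the highest mean in day-1 and day-6 paw. Each SD here is over libraries, so overlapping spreads do not compare 2 genes within 1 library. In control paw C1qb, C1qc and C1qa were at 46.1 ± 8.26, 43.5 ± 4.57 and 42.4 ± 5.03 CPM per kilobase, which did not differ beyond their spread. C3 followed at 31.2 ± 6.87 CPM per kilobase, then Cfb at 19.9 ± 4.37, C4b at 14.2 ± 3.81, Cfp at 9.50 ± 1.56, C3ar1 at 3.10 ± 0.818 and C5ar1 at 2.75 ± 0.871. Both receptors thus stood lowest and within their spread of each other. In paw on day 1 C3 was at 47.2 ± 12.2 CPM per kilobase and C1qb at 41.1 ± 11.3, within their spread. In paw on day 6 C3 led at 163 ± 48.0 CPM per kilobase, ahead of C1qb at 114 ± 24.3, with overlapping spreads. In control DRG C1qa and C1qb were level at 29.3 ± 3.64 and 29.1 ± 3.00 CPM per kilobase, C4b and C1qc followed at 21.8 ± 4.78 and 21.4 ± 1.46, within their spread, and Cfb was near the floor of the list at 1.07 ± 0.182. In day-1 spinal cord the C1q chains, at 33.3 ± 1.96 to 41.4 ± 4.02 CPM per kilobase, stood clear of Cfp at 11.8 ± 1.67, C4b at 8.89 ± 1.85 and C3 at 7.82 ± 0.396.

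**Figure D1:**
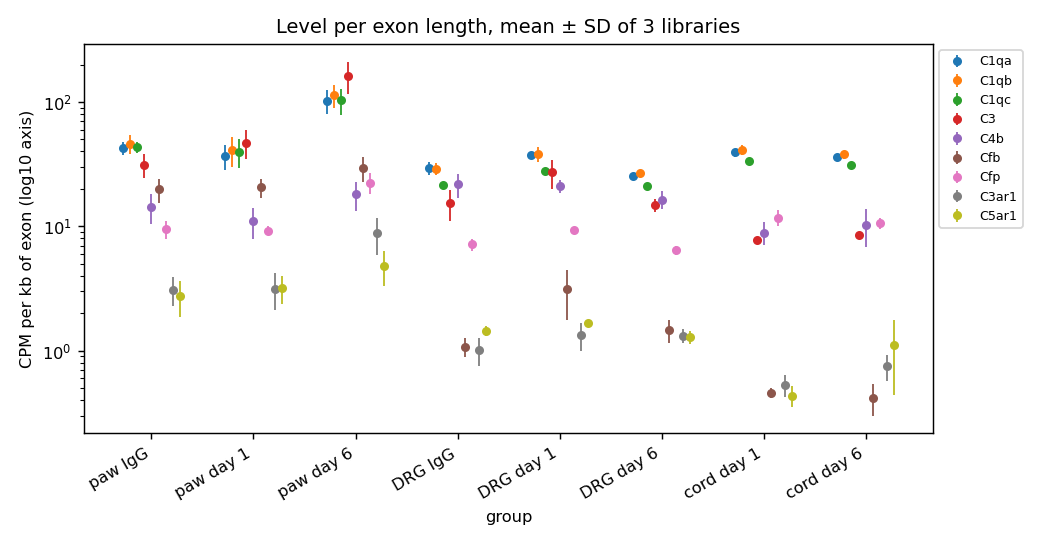
Mean CPM per kilobase of exon (log axis, with SD over 3 libraries) of the 9 complement genes in each tissue and group. C3 stood below the C1q chains in control paw, at 31.2, and above them in day-6 paw, at 163, while C1qa and C1qb had the highest means in DRG and spinal cord.

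Paw skin held more complement RNA on day 6 than in controls. The C1q chains C1qa and C1qc, C3 and properdin rose, C1qb missed the threshold, and C4b, Cfb and both receptors did not pass. Of the 9 members, 4 were higher and 0 lower, where 0.667% of 15287 genes tested were called higher, and all 9 members passed the filter on low counts. The median log2 fold change was 1.25, against -0.01 over all genes. In bulk tissue, more cells of a type and more RNA per cell cannot be told apart.

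C1qa was at 47.4, 46.8 and 38.0 CPM in control paw and at 125, 114 and 80.6 CPM on day 6. All day-6 libraries lay above all controls, a 2.42-fold difference (log2 fold change 1.28 ± 0.20, edgeR adjusted p = 0.034). C1qc behaved alike, with 52.6, 57.7 and 46.7 CPM in controls and 149, 132 and 92.2 CPM on day 6 (1.25 ± 0.22, edgeR adjusted p = 0.0493). C1qb, the remaining chain, went from 57.9, 52.3 and 40.3 CPM to 143, 135 and 93.3 CPM, again without overlap. Its log2 fold change of 1.30 ± 0.24 was the largest of the 3 chains but missed the threshold (edgeR adjusted p = 0.0567). It passed with RLE scaling (0.0485), upper-quartile scaling (0.0388), limma voom (0.0384), the replicate block (0.0155) and in DESeq2 (1.64e-05), as adjusted p. It did not pass with no filter, a stricter filter, only the compared groups or a skeletal muscle score as covariate. Of the fits without a library, only that without day-6 library 3 called it (edgeR adjusted p = 0.0385), and the highest was 0.223. The chains form 1 protein and their levels followed each other across the 9 paw libraries, with Pearson correlations of 0.99 for each pair, a description over libraries that share the group difference.

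C3 had the largest difference of the 9. Its levels were 181, 180.2 and 119.6 CPM in control paw and 892, 1053 and 569 CPM on day 6. Every day-6 library lay far above every control (5.22-fold over the means, log2 fold change 2.39 ± 0.29, edgeR adjusted p = 0.0147). C4b, one step upstream, was at 110.3, 114 and 68.2 CPM on day 6, overlapping its control values of 53.6 to 93.0 CPM (0.35 ± 0.29, edgeR adjusted p = 0.811). C4a, a near-identical copy of C4b, had group means of 0.701 to 1.42 CPM, and reads shared between the copies could be lost or split, which makes the level of C4b uncertain.

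The alternative pathway split between its members. Cfp, properdin, was at 16.5, 17.5 and 12.7 CPM in control paw and at 39.8, 41.7 and 28.7 CPM on day 6, with no overlap (2.37-fold, 1.24 ± 0.17, edgeR adjusted p = 0.0235). Cfb, which was abundant in IgG control skin, was at 86.8, 95.1 and 60.8 CPM on day 6 against 60.1, 63.0 and 40.9 CPM in controls. The lowest day-6 value lay inside the control range (0.57 ± 0.22, edgeR adjusted p = 0.419).

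The receptors were less clear. C3ar1, the C3a receptor, was at 11.6, 17.4 and 11.0 CPM in controls and at 47.3, 42.8 and 23.8 CPM on day 6. The groups did not overlap and the log2 fold change of 1.51 ± 0.33 exceeded that of the C1q chains, but it did not pass (edgeR adjusted p = 0.0981). DESeq2 called C3ar1 (adjusted p = 0.000305), as did edgeR with the replicate block (0.0397) and without day-6 library 3 (0.0439). No other alternative called it. C5ar1, the C5a receptor, was at 8.18, 8.51 and 4.48 CPM in controls and at 15.3, 14.0 and 7.95 CPM on day 6, where the lowest day-6 library fell within the control range (0.82 ± 0.33, edgeR adjusted p = 0.447). In all, 6 of the 9 members had groups that did not overlap, all higher, against 8.22% of all genes in that direction. For all 9 members, library 3 was the lowest of the day-6 paw libraries and the lowest of the control paw libraries.

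**Figure D2:**
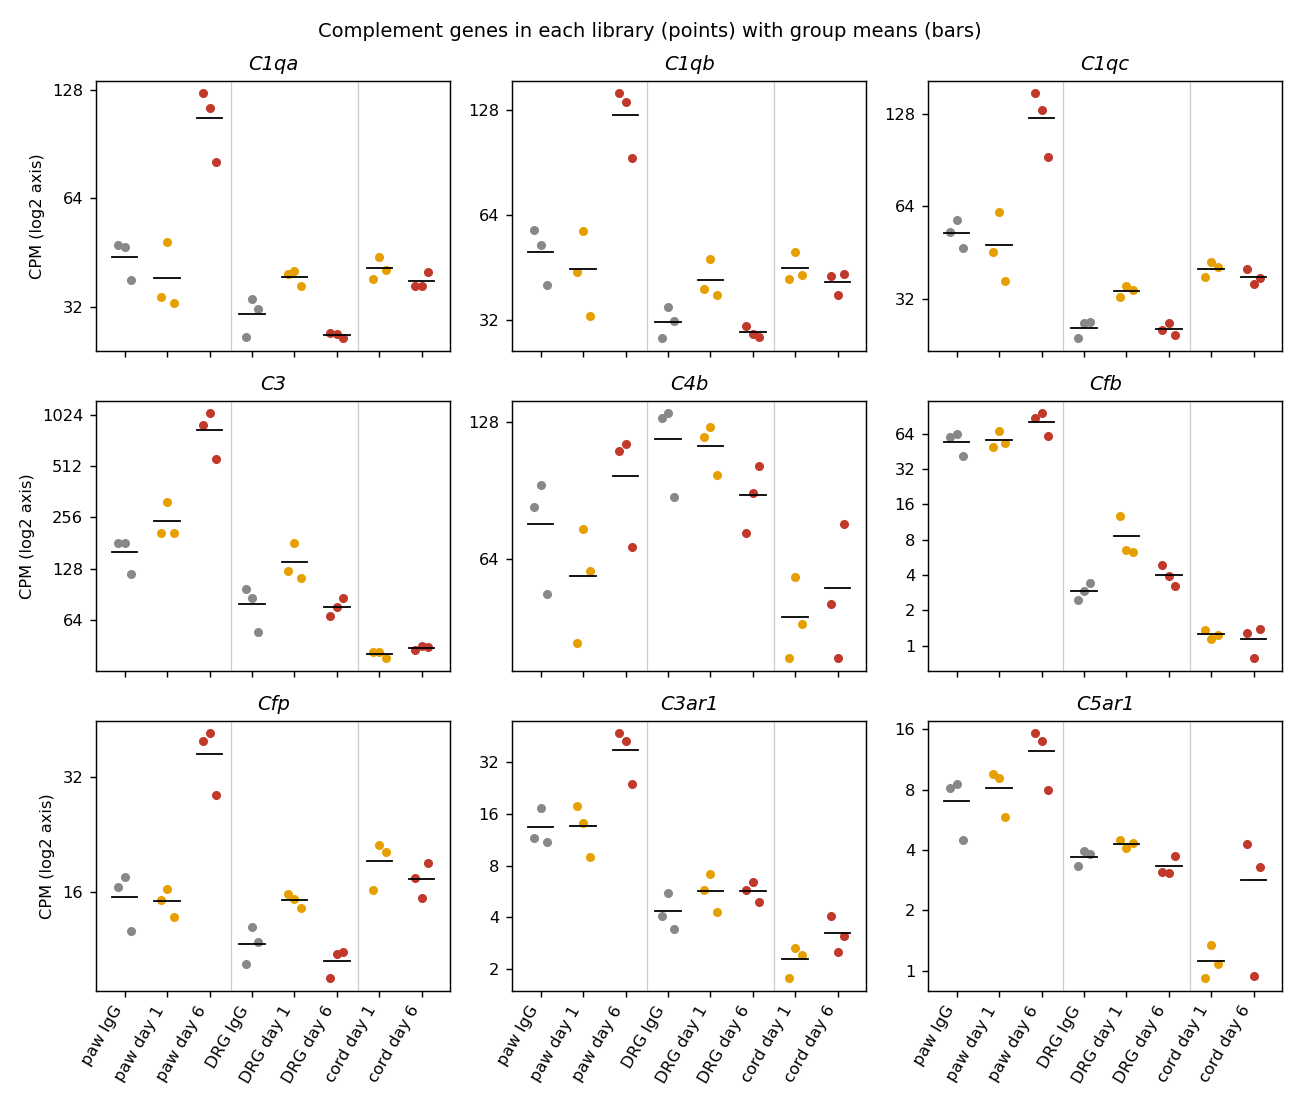
CPM (log axis) of each complement gene in every library, by tissue and group, with 3 points a group. C3 on day 6 in paw, at 569 to 1053 CPM, lies above every other paw value, and C4b overlaps between the groups.

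The day-6 paw calls rested on small groups. With 1 library left out, the number of members called was 0 when control 2, control 3 or either of the first 2 day-6 libraries was omitted, 1 without control 1, and 6 without day-6 library 3, while the log2 fold change of C3 stayed between 2.19 and 2.60. A fit of only the control and day-6 libraries called 0 members and 0 of all genes, with log2 fold changes of 1.29 for C1qa and 2.40 for C3, and with the skeletal muscle score as a covariate C1qc lost its call at 1.24. In 4 of the 6 fits without a library, those with 0 members called, 0 of all genes were called. Without control 1, 47 genes in all were called, and without day-6 library 3, 155 were.

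**Figure D3:**
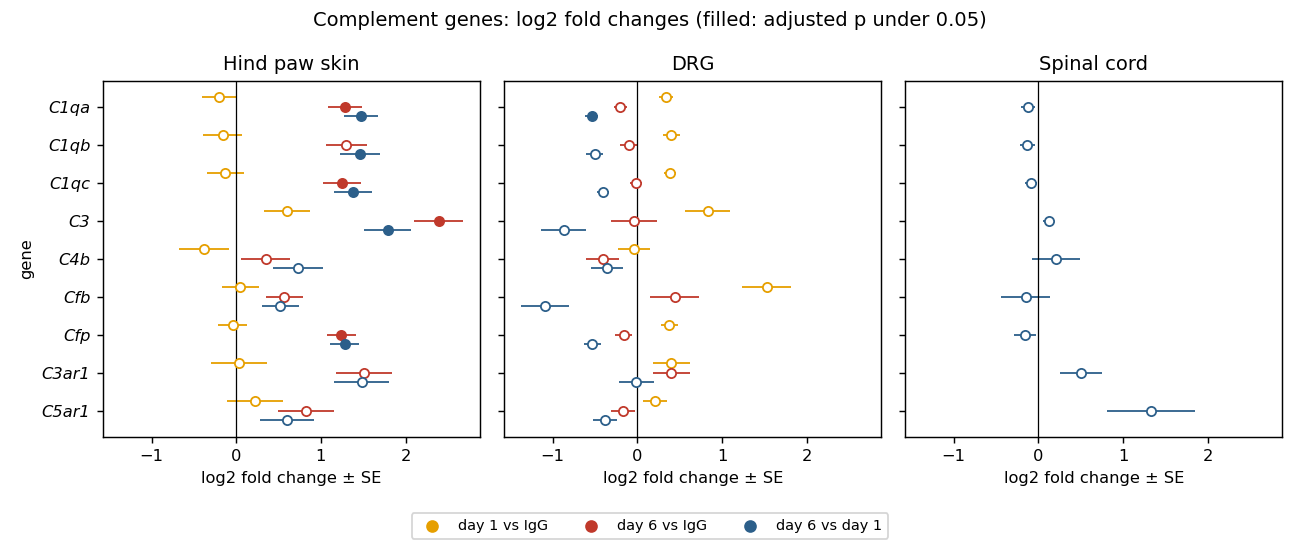
Log2 fold changes with SE of the 9 complement genes in each comparison within paw, DRG and spinal cord, filled where the edgeR adjusted p was under 0.05. The paw panel shows C3 at 2.39 and the C1q chains near 1.3 on day 6 against control, and the DRG panel shows 8 of 9 values above 0 on day 1 and all 9 below 0 from day 1 to day 6.

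On day 1 paw skin showed no call among the complement genes, where 0.00654% of all genes, 1 gene, was called. The unadjusted p was under 0.05 for 1626 genes, and DESeq2 called 209 genes and limma voom 1, with 0 members by either tool. C3 came nearest, at 206, 315 and 206 CPM, above all its controls, a pattern that 6.4% of all genes shared (log2 fold change 0.60 ± 0.27, unadjusted p = 0.0572, edgeR adjusted p = 0.481). The C1q chains overlapped their controls, with C1qa at 34.0, 48.5 and 32.7 CPM. Both day comparisons share the same 3 control libraries.

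From day 1 to day 6 within agonist paw, which avoids those controls, 5 of the 9 members were higher and 0 lower, where 0.949% of all genes were called higher. C1qa was 2.78-fold higher (1.47 ± 0.20, edgeR adjusted p = 0.0246), C1qb 2.76-fold (1.46 ± 0.24, 0.0334) and C1qc 2.61-fold (1.38 ± 0.22, 0.0334). C3 was 3.46-fold higher (1.79 ± 0.28, 0.0298) and Cfp 2.44-fold (1.28 ± 0.17, 0.0233). C3ar1 stood 1.48 ± 0.33 above day 1 on the log2 scale without passing (edgeR adjusted p = 0.0828), and the estimates of 0.73 ± 0.29 for C4b, 0.52 ± 0.22 for Cfb and 0.60 ± 0.32 for C5ar1 did not pass either. The count was 0 without day-1 library 1 or 3 or day-6 library 1 or 2, and each of those fits called 0 of all genes. It was 3 without day-1 library 2, where 42 genes in all were called, and 6 without day-6 library 3, where 141 were.

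Macrophage and monocyte genes had higher summed levels in the same day-6 paw libraries. Of 10 macrophage genes, 4 were higher on day 6 than in controls, where 0.667% of all genes were called higher. The median was 1.31 on the log2 scale. The summed level of the list was 534 to 683 CPM in controls, 474 to 523 CPM on day 1 and 799.9 to 1009 CPM on day 6. The monocyte list had 1 of 5 genes called, the chemokine receptor Ccr2, and summed to 101 to 128 CPM in controls and 232 to 409 CPM on day 6. This call and those of the macrophage genes were lost in the fits above that called 0 of all genes. Neutrophil genes had 0 of 5 called and negative estimates for all 5, at 44.7 to 389 CPM in controls and 14.0 to 129 CPM on day 6. The part of these cells in the complement values was not tested.

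In DRG the day-1 group had slightly higher complement RNA, by differences that did not pass the test over all genes. Here 0 of 9 members were called, where 0.168% of 15461 genes were, but 8 of 9 log2 fold changes were positive, the median was 0.39 against 0 over all genes, and 7 members had all day-1 libraries above all controls, against 7.55% of genes. The unadjusted p was under 0.05 for 6 of the 9 members and for 7.4% of all genes. DESeq2 called 4 members, C1qa, C1qb, C1qc and Cfb, among 131 genes in all, against 26 genes in the main fit. With limma voom 0 members and 19 genes were called. Control library 1 stood apart, with 31.5% of its counted reads assigned to no gene against 13.1% to 13.8% in the other DRG libraries, and it was the lowest control for 6 of the 9 members. Without it the day-1 log2 fold change was 0.24 for C1qa and 0.29 for Cfp. That of C3, for which it was the highest control, went the other way, from 0.83 to 1. The part of this library in the values was not tested.

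C1qc was at 23.7, 26.6 and 26.9 CPM in control DRG and at 32.3, 35.2 and 34.0 CPM on day 1, a narrow and separated difference (0.39 ± 0.07, edgeR adjusted p = 0.0652). C1qa went from 26.3, 33.6 and 31.6 CPM to 39.5, 40.3 and 36.6 CPM (0.34 ± 0.08, 0.258). C1qb went from 28.3, 34.8 and 31.8 CPM to 39.3, 48.0 and 37.7 CPM (0.40 ± 0.10, 0.262). All 3 chains thus had group means 1.27 to 1.32 times the control means.

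Cfb had the largest DRG difference, from 2.44, 2.95 and 3.44 CPM in controls to 12.8, 6.54 and 6.33 CPM on day 1. The groups were separate and library 1 was the highest by far (2.90-fold, 1.53 ± 0.29, edgeR adjusted p = 0.105). With each library's skeletal muscle score as a covariate Cfb passed, at 1.58 (edgeR adjusted p = 0.0359). Leaving out day-1 library 1 lowered its log2 fold change to 1.11. Over the 6 fits without a library its highest edgeR adjusted p was 0.413. Summed adipocyte genes were at 5.32 to 11.8 CPM in control DRG and at 46.8, 11.4 and 11.0 CPM on day 1, highest in the same library 1 as Cfb. Cfd, named here after its values were seen, encodes factor D, a protease of the same pathway made by adipocytes, and was at 9.58, 3.35 and 8.18 CPM in controls and 53.2, 16.5 and 16.0 CPM on day 1 (2.03 ± 0.67, edgeR adjusted p = 0.566). The part of adipocytes in the Cfb value was not tested. C3 was at 96.5, 85.3 and 54.0 CPM in controls and 124, 182 and 113 CPM on day 1, without overlap but with wide spread (0.83 ± 0.27, 0.529). Cfp was separate too, from 10.3, 12.96 and 11.8 CPM to 15.8, 15.3 and 14.5 CPM (0.38 ± 0.10, 0.32). C5ar1 was separate at low levels, 3.33 to 3.97 CPM against 4.11 to 4.47 CPM, and C3ar1 and C4b overlapped.

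DRG macrophage genes had differences of like size on day 1, at a median of 0.39. Of the 10, 1 was called higher, Mrc1, where 0.162% of all genes were. The list summed to 113 to 144 CPM in controls, 157 to 159.9 CPM on day 1 and 139 to 152 CPM on day 6. The part of macrophages in the DRG values was not tested.

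On day 6 the DRG libraries overlapped control for each member and were mostly below day 1. Against control, 0 of 9 members were called and 0% of all genes, every adjusted p was 0.995 in edgeR, 557 genes had an unadjusted p under 0.05, DESeq2 called 2 genes and limma voom 0, and 0 members were separate, against 8.88% of all genes. Against day 1, 1 member was lower, C1qa, where 0.0906% of genes were called lower. C1qa on day 6 was at 27.0, 26.8 and 26.1 CPM, all below the lowest day-1 value of 36.6 CPM (-0.54 ± 0.08, edgeR adjusted p = 0.0452). C1qc had -0.41 ± 0.07 (0.0697), Cfp -0.53 ± 0.10 (0.119), C1qb -0.50 ± 0.10 (0.127), C3 -0.87 ± 0.27 (0.583) and Cfb -1.09 ± 0.28 (0.359), as log2 fold changes with edgeR adjusted p. All 9 estimates were negative, and 7 members had every day-6 library below every day-1 library, against 6.47% of genes. The C1qa call was lost without any single one of the 6 libraries and when the replicate number was added as a block (edgeR adjusted p = 0.0581), while its log2 fold change stayed between -0.58 and -0.51.

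The size of the agonist difference was compared directly between paw and DRG in 1 fit of 18 libraries. On day 6 the difference from control was larger in paw for 5 of the 9 members, where 0.48% of genes were, C3 by a log2 of 2.42 ± 0.39 (edgeR adjusted p = 0.0128), C1qa by 1.47 ± 0.23 (0.0117), C1qb by 1.40 ± 0.27 (0.034), Cfp by 1.39 ± 0.21 (0.00817) and C1qc by 1.26 ± 0.24 (0.0294). With any 1 of the 12 libraries left out 2 to 5 members were called, and C1qb, C1qc and C3 lost the call in 1 or more of these fits (highest edgeR adjusted p = 0.116, 0.109 and 0.0549). With each paw library blocked with the like-numbered DRG library of its group, C1qc lost its call (0.0634), and 34 genes in all were called against 82. On day 1, 0 members and 0% of genes differed between the tissues, with 1594 genes at an unadjusted p under 0.05. DESeq2 called 59 genes there, with Cfb among them, and limma voom called 0. The estimate for Cfb on day 1 was -1.48 ± 0.38 (edgeR adjusted p = 0.292), the larger difference being in DRG.

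The change from day 1 to day 6 itself differed between the tissues, a comparison added after the values were seen and free of the shared controls. The same 5 members were called, where 0.729% of genes were called higher, with C3 at 2.66 ± 0.39 (edgeR adjusted p = 0.00639), C1qa at 2.02 ± 0.23 (0.00257), C1qb at 1.96 ± 0.27 (0.00595), Cfp at 1.82 ± 0.21 (0.00257) and C1qc at 1.80 ± 0.24 (0.00593). Between 5 and 7 members were called with any 1 of the 12 libraries left out.

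In spinal cord, where only the agonist groups could be compared, no complement gene passed the test between day 1 and day 6. Of the 9 members 0 were called, as were 0% of all genes, with 1464 genes at an unadjusted p under 0.05, 64 genes called by DESeq2 and 0 by limma voom. C1qa was at 38.1, 44.0 and 40.5 CPM on day 1 and at 36.5, 36.6 and 39.9 CPM on day 6. C3 was at 41.1, 41.5 and 37.8 CPM and then at 42.4, 44.6 and 43.9 CPM, narrowly separate and the 1 member with no overlap (0.12 ± 0.07). Genes that did not overlap and were higher made up 8.17% of all genes.

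C5ar1 was the member with the widest spread in spinal cord, at 0.917, 1.35 and 1.08 CPM on day 1 and at 4.28, 0.946 and 3.28 CPM on day 6, from 23 to 94 counts per library. The groups overlapped through day-6 library 2 (1.33 ± 0.52, edgeR adjusted p = 0.495). Without that library C5ar1 passed, at 1.76 (edgeR adjusted p = 0.016), in a fit that called 818 genes in all against 0 with every library. Summed neutrophil genes, markers of a cell type that carries the C5a receptor, were at 14.2, 15.6 and 28.6 CPM on day 1 and at 351, 53.3 and 85.1 CPM on day 6, again highest in library 1 and lowest in library 2 of day 6. That order also held for summed fibroblast genes, at 895, 224 and 784 CPM on day 6, for monocyte genes at 61.5, 11.3 and 21.8 CPM, and for erythroid genes at 41.4, 4.85 and 9.22 CPM. The part of these cells in the C5ar1 value was not tested.

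The level of C1q was also set against macrophage genes. The summed CPM of the 3 chains, divided by the summed CPM of Csf1r, Emr1, Cd68 and Mpeg1, was 1.49, 1.18 and 1.08 in control paw, 0.931, 1.18 and 1.03 on day 1, and 1.07, 1.04 and 0.953 on day 6. The day-6 paw values thus lay below every control value although summed C1q was 125 to 158 CPM in control paw and 266 to 417 CPM in day-6 paw. In DRG the ratio was 1.05, 1.01 and 0.978 in controls, 1.16, 1.20 and 1.08 on day 1, and 0.847, 0.794 and 0.770 on day 6. The 3 DRG groups did not overlap, the order being day 1, control, day 6. In spinal cord it was 0.887, 0.920 and 0.939 on day 1 and 0.690, 0.906 and 0.808 on day 6.

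The log2 ratio differed by -0.28 in paw between day 6 and control, and in DRG by 0.18 on day 1, by -0.33 on day 6 and by -0.52 between the days. Each of these 4 had p = 0.1 in a 2-sided exact permutation test, the smallest p that 3 against 3 allows, and an adjusted p of 0.175 over the 7 comparisons made, so none could pass. With Csf1r alone as the denominator the day-6 difference from control in paw was -0.07.

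**Figure D4:**
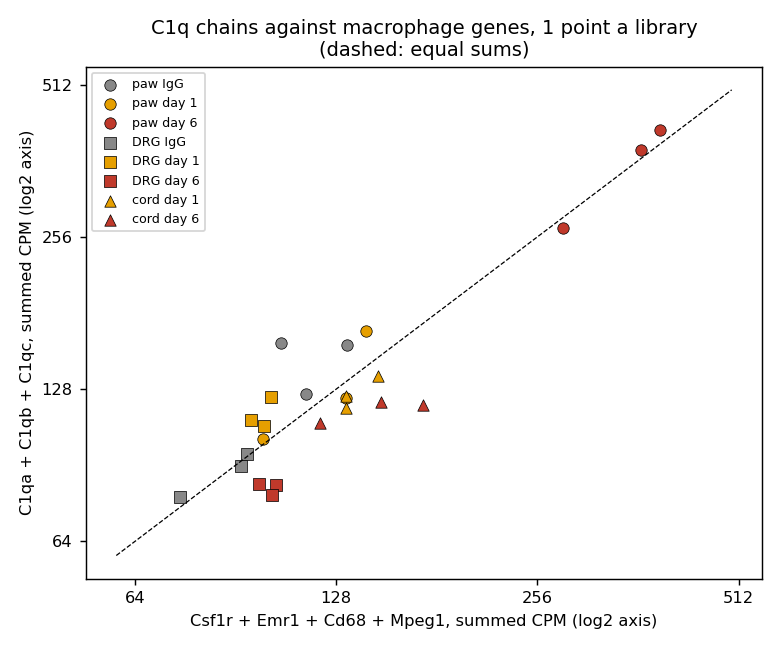
Summed CPM of the C1q chains against summed CPM of Csf1r, Emr1, Cd68 and Mpeg1 in each library, by tissue and group, on log2 axes with a dashed line at equal sums. Day-6 paw libraries lie to the upper right, at 266 to 417 CPM of C1q, and day-6 DRG libraries hold less C1q for their macrophage genes than the other DRG libraries.

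Among the other complement genes, 1 receptor chain rose in paw. Of 43 further symbols 42 were matched, and 29 were tested in paw, where 1 was higher on day 6 and 0 lower, with a median of 0.22. That gene was Itgam, the alpha chain of complement receptor CR3, at a mean of 72.1 ± 21.9 CPM on day 6 against 23.0 ± 2.82 CPM in controls (1.65 ± 0.26, edgeR adjusted p = 0.0334). This call too was lost in the 5 fits above that called 0 of all genes, and the share of all genes called higher was 0.667%. It was also higher than on day 1 (1.48 ± 0.25, 0.0389), and its day-6 difference was larger in paw than in DRG (1.62 ± 0.31, 0.0312). All 6 further receptor genes tested had positive estimates, with a median of 1.28, whereas 10 classical and lectin pathway genes had a median of 0.41 and 10 regulators a median of -0.02, with 5 positive and 5 negative estimates. Of the terminal components that follow C5, C6, C8a and C8b were at 0 to 7 counts in any library, C9 at 0 to 16 and C8g at 1 to 40 counts.

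In DRG on day 1, 0 of 32 further complement genes were called. The smallest p were those of Serping1, the C1 inhibitor, at 271 ± 26.2 CPM against 226 ± 5.47 CPM (0.26 ± 0.06, edgeR adjusted p = 0.258), and C1s, a C1 protease, at 52.0 ± 5.65 CPM against 36.8 ± 3.19 CPM (0.50 ± 0.13, 0.328). Of 24 tested in spinal cord 0 were called. Control levels of regulators differed between the tissues in both directions. Of 12 tested, 4 were higher and 7 lower in paw than in DRG, where 81.5% of all genes were called in either direction. Among the lower were Susd4 and Cd59a, which restrain activation and the lytic complex, with log2 fold changes of -5.76 ± 0.20 and -2.47 ± 0.14.

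The genes whose levels were most like a member's across libraries differed by tissue. Over the 9 paw libraries, C1qa was nearest to C1qc, Cd48, C1qb, Ctsc and Folr2, with Pearson correlations of log2 CPM from 0.99 to 0.993, and C3 to Lcp1, Sfpi1, Alox5, Selplg and Hcls1, from 0.974 to 0.98. C4b in paw was nearest to Tchp, Sostdc1, Mmrn1, C1qtnf1 and Hps5. None of these paw sets shared a gene with another. In DRG the genes nearest to C1qa were Dctpp1, Copz2, Cfp, Anapc1 and Cd68, at 0.947 to 0.958, and those nearest to C3 were led by H2-K2 at 0.969. These correlations describe libraries that share group differences and are not tested.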

How the data were processed

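The values were raw counts of reads per gene as the authors deposited them, in 24 files of 22609 gene symbols each, and the 5 summary lines of a file were removed. Per the submitters' processing notes these came from bcl2fastq, TopHat2, HTSeq and the mm9 build. Their versions, the gene annotation and the strand option are not given in the sources used here. There were 0 columns of other samples, and 0 of 24 replicate pairs were identical. Within each tissue all groups entered 1 quasi-likelihood fit in R 4.3.3 with limma 3.58.1 and edgeR 4.0.16, after TMM scaling and the default filter, with Benjamini-Hochberg adjustment over all genes. The filter left 15287 paw genes, 15461 DRG genes and 15096 spinal cord genes. Differences between paw and DRG were interaction terms of a joint fit to 16461 genes. Exon lengths for levels per kilobase came from GENCODE M21, another build than the counts. Alternatives used DESeq2 1.42.0, limma voom, other normalizations and filters, covariates, a replicate block and omitted libraries. The pipeline was tested on simulated data. The rule named all 9 members, up to 6 called or 2 uncalled other complement genes per comparison, up to 2 genes per cell type list, Nfkb2 and Relb, and the 5 genes most correlated with C1qa, C3 and C4b. Members and lists were chosen with earlier results of these data known, and the C/EBP and ETS patterns and the comparison of the change between days across tissues were added after seeing the data.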

Additional observations from a re-analysis of the deposited data

Results flagged for a closer look

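The agonist difference on day 6 was larger in paw skin than in DRG for C1qa by a log2 of 1.47, C1qb by 1.40, C1qc by 1.26, C3 by 2.42 and Cfp by 1.39, each past the threshold of the interaction test in edgeR. With 1 of the 12 libraries left out 2 to 5 of these were called, with C1qb, C1qc and C3 short of the threshold in at least 1 such fit. The change from day 1 to day 6 was also larger in paw for C1qa by 2.02, C1qb by 1.96, C1qc by 1.80, C3 by 2.66 and Cfp by 1.82, each past the threshold of the same kind of test, which was chosen after seeing the data.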

How the results depend on the processing

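Of 846 log2 fold changes of members recomputed under other normalizations, filters, tools, blocks and covariates, 793 kept their direction and side of the threshold, 11 fell short of it, 31 newly passed and 11 changed sign. Of 756 with a library left out, 643 kept both, 73 fell short, 6 newly passed and 34 changed sign. Deviations of libraries of 1 tissue with the same replicate number had correlations of -0.64 to 0.32 in paw, -0.69 to 0.24 in DRG and -0.60 to -0.18 in spinal cord. For different numbers the ranges were -0.58 to 0.59 in paw, -0.5 to 0.62 in DRG and -0.25 to 0.54 in spinal cord. As the ranges overlap, they cannot decide whether the numbers mark pairs or batches. Library 3 was the lowest for all 9 members in control and day-6 paw, and for 6 of them in day-1 paw. With the replicate number as a block the count of members called was 7 in paw on day 6 against control and 0 in DRG between the days, where the block moved the edgeR adjusted p of C1qa to 0.0581. It moved no other count of members by over 1.5 times. The labels do not say whether paw and DRG libraries of 1 number came from 1 mouse. Deviations of the 9 such pairs had correlations of -0.06 to 0.53, over 0.1 in 6, against -0.48 to 0.41 for other numbers. With each such pair as a block, chosen after seeing the data, 4 members were called for the day-6 difference between tissues, 6 for that between days (C3ar1 newly, at 1.46), 9 between control tissues and 0 on day 1, while genes called in all went from 82 to 34 and from 133 to 54 for the day-6 difference and that between days. With only the compared groups in the fit the count in paw on day 6 was 0. In DRG on day 1 the count was 1 with no filter, 4 in DESeq2 and 1 with the skeletal muscle score. Genes called in all were 38, 131 and 26 there, against 26 in the main fit. Between the DRG days the count was 2 with no filter and 5 in DESeq2. Those fits called 27 and 106 genes in all, against 16 in the main fit. DESeq2 also called 1 member in the day-1 difference between tissues. With 1 library left out, the counts ranged from 0 to 6 in paw on day 6 against control and against day 1, from 2 to 5 for the day-6 difference between tissues, from 5 to 7 for that between days, from 7 to 9 between control tissues, from 0 to 1 in spinal cord and from 0 to 0 elsewhere. With Csf1r alone as denominator, the log2 C1q ratio differed by -0.07 in paw on day 6 against control, by 0.13 against day 1 and by 0.11 in DRG on day 1. With 1 library left out that ratio differed by -0.38 to -0.15 and by -0.11 to 0.06 in paw on day 6 against control and day 1, by -0.35 to -0.12 in paw on day 1, and in spinal cord by -0.29 to -0.10. Signs changed only for values that had not passed. In paw on day 1 Cfp became 0.01 in limma voom and 0 with the muscle score, and C3ar1 -0.01 with the block and -0.08 with the muscle score. Between the DRG days C3ar1 became 0.01 with upper-quartile scaling and 0.02 with the block or the muscle score. In spinal cord C4b became -0.02 with the meningeal score, and in the day-1 difference C5ar1 became -0.03 with RLE scaling and DESeq2 and -0.01 with upper-quartile scaling. With a library left out, signs changed in paw on day 1 for C1qb (-0.38 to 0.01), C1qc (-0.35 to 0.02), C3ar1 (-0.21 to 0.27), C5ar1 (-0.03 to 0.41), Cfb (-0.12 to 0.16) and Cfp (-0.17 to 0.05), in DRG for C4b on day 1 (-0.22 to 0.06), C1qc and C3 on day 6 (-0.08 to 0.01 and -0.26 to 0.13) and C3ar1 between the days (-0.17 to 0.19). They also changed in spinal cord for C4b (-0.09 to 0.40) and Cfb (-0.29 to 0.07), in the day-1 difference for C3 (-0.47 to 0) and C5ar1 (-0.24 to 0.19) and in the day-6 difference for Cfb (-0.05 to 0.29). The cause of these shifts was not tested. Levels of Cfb and C5ar1 in spinal cord rested on 19 to 36 and 23 to 94 counts, so small differences there were not detectable.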
